A study of Bos taurus with 8 samples.

Results

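MHC class I molecules carry peptides from inside the cell to its surface, where CD8 T cells read them. The proteasome, in its inducible form the immunoproteasome, cuts proteins into peptides, the TAP transporter moves the peptides into the endoplasmic reticulum, an aminopeptidase trims them, and a chaperone complex loads them onto a heavy chain paired with beta-2-microglobulin. Interferon gamma and the transactivator NLRC5 are known to raise the transcription of most of these genes, and in the intestine the pathway serves both the epithelium and the lymphocytes within and beneath it.

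The genes described here were 9 MHC class I antigen processing genes chosen by name under a rule that uses no measured value, though with earlier results of these data known: B2M, TAP1, TAP2, TAPBP, NLRC5, ERAP1, PSMB8, PSMB9 and PSMB10. They were 9 of the 17932 genes in the table, and all 9 were above the expression filter, which left 13228 genes for testing. The samples were jejunum of Holstein bull calves on day 90. The DCLI group (4 calves) was fed LIC37, a postbiotic of dead cells of the lactic acid bacterium Limosilactobacillus ingluviei, at 1 g/d, and the CON group (4 calves) received no postbiotic. All calves shared the same breed, sex and day of sampling, and each library came from 1 calf. Levels are given in TPM (transcript abundance per length, scaled to the same total in every library), summed over the transcripts of a gene. Group differences were taken on the log2(TPM + 1) scale with limma, as DCLI minus CON, and p-values were adjusted by the Benjamini-Hochberg method over all genes tested.

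One library stood apart before any comparison. Summed TPM of 8 B cell markers was 20.1 to 40.3 in the DCLI libraries and 19.5 to 38.5 in CON1, CON2 and CON3, but 3246 in CON4. The 8 enterocyte markers summed to 19206 to 33727 TPM in the DCLI libraries, 9203 to 28053 TPM in CON1 to CON3 and 1158 TPM in CON4. LCT (lactase) and ALPI (intestinal alkaline phosphatase) were listed at 0 in CON4, but these zeros were not particular to it. LCT was also at 0 in CON3 and at 0.09 TPM in CON1, with 52.8 TPM in CON2 and 63.7 to 518 TPM in the DCLI libraries. ALPI was low everywhere, at 0.18 to 1.06 TPM in CON1 to CON3 and 1.22 to 1.75 TPM in the DCLI libraries. The 8 T cell markers summed to 481 to 526 TPM in the DCLI libraries, 405 to 609 TPM in CON1 to CON3 and 174 TPM in CON4. Summed macrophage and dendritic cell markers (435 to 1404 TPM in DCLI and 689 to 1238 TPM in CON libraries), plasma cell markers (464 to 1665 and 433 to 2269 TPM), endothelial markers (45.5 to 62.6 and 33.8 to 91.2 TPM) and smooth muscle markers (755 to 2479 and 1160 to 7062 TPM) overlapped between the groups. One label names liver as the source of the RNA, but the liver gene ALB was at most 1.07 TPM in any library and VIL1, a protein of the enterocyte brush border, was at 117 TPM or more. In whole tissue, fewer cells of a type and less RNA per cell cannot be told apart. Fold changes and ratio differences between the groups are therefore given with CON4 and without it.

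None of the 9 genes passed the test between DCLI and CON calves. At an adjusted p under 0.05 the count was 0 of 9, against a background of 0.0% of all genes tested, and at an unadjusted p under 0.05 it was 0 of 9, against 7.08% of all genes. The DCLI and CON values overlapped for every one of the 9, where 5.39% of all genes had no overlap. All 9 fold changes were positive, against 43.5% of all genes, and their median was 0.24 on the log2 scale, against -0.06 for all genes. Without CON4, 8 of 9 were positive, against 51.4% of all genes, and the median was 0.09, against 0.01 for all genes. Exact permutation p-values of the single genes lay between 0.343 and 0.914 (2-sided, 70 assignments, smallest possible p 0.029).

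**Figure D1:**
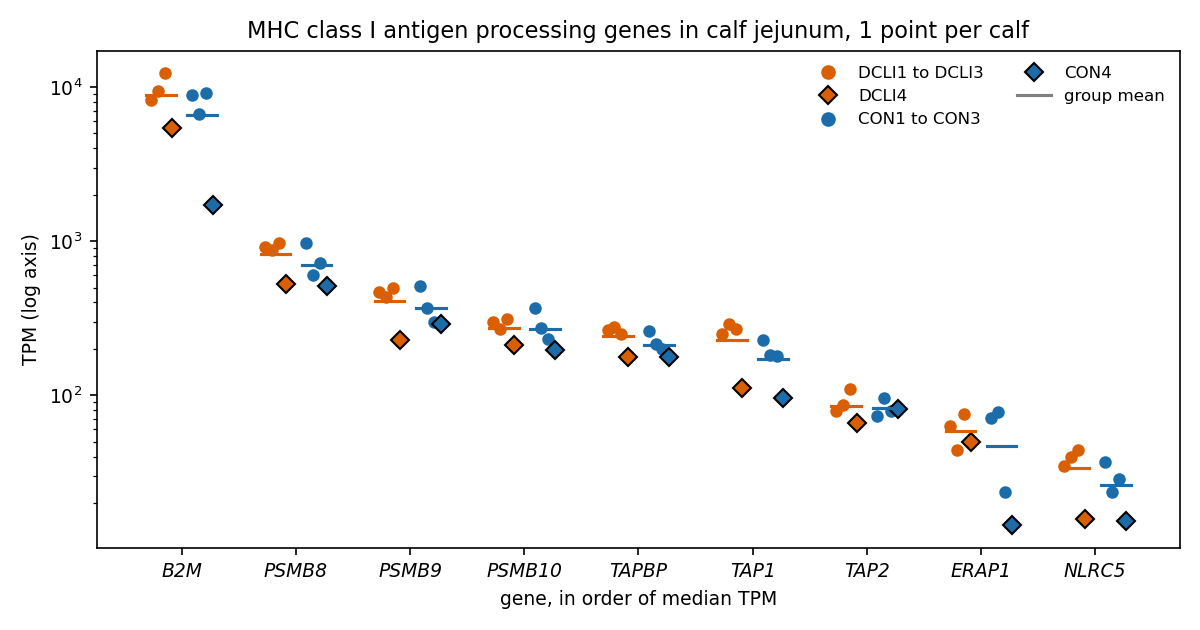
TPM of the 9 genes (log axis) in each calf, DCLI left and CON right within a gene, with diamonds for DCLI4 and CON4 and bars for the group means (n = 4 each). The DCLI and CON points overlap for every gene, B2M lies above all others, and the diamonds lie at the bottom for most genes, as for NLRC5 at 15.7 TPM in DCLI4 and 15.3 TPM in CON4.

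The levels covered a wide range. By median over the 8 libraries the order was B2M (8571 TPM), PSMB8 (798), PSMB9 (402), PSMB10 (272), TAPBP (232), TAP1 (204), TAP2 (80.7), ERAP1 (56.3) and NLRC5 (31.6). B2M was above PSMB8, PSMB8 above PSMB9, and PSMB9 above PSMB10 in 8 of 8 libraries. The neighbours that changed places were PSMB10 and TAPBP (7 of 8 libraries in the given order), TAPBP and TAP1 (6 of 8), and ERAP1 and NLRC5 (6 of 8), whereas TAP1 was above TAP2 and TAP2 above ERAP1 in 8 of 8.

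B2M encodes beta-2-microglobulin, the light chain that every class I heavy chain needs to fold and reach the surface. It was at 8239, 9468, 12268 and 5461 TPM in DCLI1 to DCLI4, against 8904, 6692, 9158 and 1711 TPM in CON1 to CON4. The highest value was in a DCLI calf, but 3 of the 4 CON values lay within the DCLI range, and CON4 was at 0.21 of the mean of the other CON calves. B2M averaged 8859 ± 2824 TPM in DCLI calves and 6616 ± 3452 TPM in CON calves (SD, n = 4 each). The log2 fold change was 0.62 ± 0.56 (SE; 95% interval -0.64 to 1.88; limma adjusted p = 0.775), and it was 0.06 without CON4.

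B2M pairs with heavy chains, of which the table held 7 genes by symbol (JSP.1 and genes named BOLA). These are related genes whose reads the quantification can divide among them, so their single values are uncertain. Their sum is given for that reason, and how fully it captures class I reads was not tested. The sum was 21549, 23043, 17073 and 15447 TPM in the DCLI calves, against 21112, 17944, 23493 and 4132 TPM in the CON calves. CON4 was again far below the other calves, while the other 3 CON values lay within or just above the DCLI range. The log2 difference of the sum was 0.46 with an exact permutation p of 0.771, and -0.12 without CON4.

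Most of the sum came from the gene listed as BOLA-3. BOLA-3 was at 16232, 17382, 13556 and 9635 TPM in the DCLI calves and at 14972, 14444, 16012 and 2737 TPM in the CON calves, with a log2 fold change of 0.49 ± 0.58 (SE; limma adjusted p = 0.815) that was -0.13 without CON4. JSP.1 had the second highest levels, between 1594 and 4425 TPM in the DCLI calves and between 757 and 5080 TPM in the CON calves. BOLA-4 was the most uneven, at 1042, 1312, 30.3 and 256 TPM in the DCLI calves and at 16.3, 102, 929 and 16.5 TPM in the CON calves, an 80.4-fold range. High and low calves for BOLA-4 were found in both groups, and its log2 fold change of 2.14 had an SE of 1.51 (limma adjusted p = 0.749) and was 1.45 without CON4. For BOLA-NC1, a nonclassical class I gene by its symbol, the log2 fold change was 0.63 ± 0.50 (SE; limma adjusted p = 0.759), and 0.17 without CON4.

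B2M was also set against the heavy chains within each library. The ratio of B2M to the summed heavy chains was 0.382, 0.411, 0.719 and 0.354 in the DCLI calves, against 0.422, 0.373, 0.390 and 0.414 in the CON calves. All libraries but DCLI3 lay between 0.354 and 0.422, including CON4, in which both parts of the ratio were lowest. The log2 difference was 0.16, within the spread of the calves (exact permutation p = 0.857), and 0.18 without CON4 (exact permutation p = 0.886).

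TAP1 and TAP2 are the subunits of the peptide transporter, which works only as a heterodimer. TAP1 was at 249, 289, 268 and 111 TPM in the DCLI calves, against 227, 181, 179 and 95.4 TPM in the CON calves. DCLI1, DCLI2 and DCLI3 were above every CON calf, and DCLI4 was below all CON calves but CON4. TAP1 averaged 229 ± 80.5 TPM in DCLI calves and 171 ± 55.0 TPM in CON calves (SD, n = 4 each), a log2 fold change of 0.40 ± 0.37 (SE; 95% interval -0.44 to 1.24; limma adjusted p = 0.778) that was 0.14 without CON4. Without DCLI4 it was 0.72 (unadjusted p = 0.049, limma adjusted p = 0.936), the only unadjusted p under 0.05 that any of the 9 genes had when single calves were left out.

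TAP2 and TAPBP were the most even of the 9 genes. TAP2 was at 79.4, 85.9, 109 and 66.3 TPM in the DCLI calves, against 73.3, 96.4, 79.3 and 82.0 TPM in the CON calves. Unlike TAP1, it was not low in CON4, which was at 0.99 of the mean of the other CON calves, where TAP1 was at 0.49. The log2 fold change of TAP2 was 0.03 ± 0.20 (SE; 95% interval -0.42 to 0.47; limma adjusted p = 0.972), and 0.02 without CON4.

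The ratio of TAP1 to TAP2 therefore varied among calves. It was 3.11, 3.33, 2.45 and 1.67 in the DCLI calves, against 3.08, 1.87, 2.24 and 1.16 in the CON calves. The lowest value of each group was in DCLI4 and CON4, and the groups overlapped. The log2 difference was 0.37 ± 0.37 (SE) with an exact permutation p of 0.371, and 0.12 without CON4.

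TAPBP encodes tapasin, which bridges TAP and the empty class I molecule. It was at 265, 277, 248 and 176 TPM in the DCLI calves, against 261, 216, 199 and 176 TPM in the CON calves. DCLI4 and CON4 had the same low level, and the other DCLI calves lay within or just above the range of the other CON calves. The log2 fold change was 0.18 ± 0.21 (SE; 95% interval -0.31 to 0.66; limma adjusted p = 0.818), and 0.09 without CON4.

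Tapasin's partners in the loading complex gave no call. Of 4 partners tested, 2 had a positive and 2 a negative fold change and 0 had an unadjusted p under 0.05. The lectin chaperone CALR (calreticulin) had a log2 fold change of -0.29 ± 0.23 (SE), PDIA3, a thiol oxidoreductase of the complex, -0.08 ± 0.20, and the tapasin-related peptide editor TAPBPL 0.19 ± 0.21. Without CON4 these were -0.25 for CALR, -0.10 for PDIA3 and 0.10 for TAPBPL. Among 3 class I-like molecules, FCGRT (the neonatal Fc receptor chain) had a log2 fold change of 0.28 ± 0.30 (SE), the lipid-presenting CD1D -0.17 ± 0.39 and MR1, which presents vitamin B metabolites, -0.004 ± 0.32. Without CON4 they were -0.01 for FCGRT, -0.40 for CD1D and 0.02 for MR1. None of these 3 had an unadjusted p under 0.05.

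ERAP1 is the endoplasmic reticulum aminopeptidase that trims peptides to the length class I molecules hold. It was at 62.9, 44.2, 76.01 and 49.7 TPM in the DCLI calves, against 71.1, 77.7, 23.4 and 14.3 TPM in the CON calves. CON1 and CON2 were high, CON3 and CON4 were low, and all DCLI calves lay within the CON range. ERAP1 averaged 58.2 ± 14.2 TPM in DCLI calves and 46.6 ± 32.4 TPM in CON calves (SD, n = 4 each), with a log2 fold change of 0.60 ± 0.52 (SE; 95% interval -0.57 to 1.77; limma adjusted p = 0.768) that was 0.16 without CON4. ERAP1 was the only one of the 9 whose low calves were CON3 and CON4 and not DCLI4.

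Of 7 other peptidases that make or destroy class I peptides, LAP3, a cytosolic leucine aminopeptidase, had the largest fold change. LAP3 was at 416, 436, 406 and 280 TPM in the DCLI calves, against 292, 346, 180 and 141 TPM in the CON calves. DCLI1 to DCLI3 were above every CON calf, and DCLI4 was below CON1 and CON2. Its log2 fold change was 0.75 ± 0.31 (SE; unadjusted p = 0.039, limma adjusted p = 0.696), and 0.53 without CON4 (unadjusted p = 0.073). BLMH (bleomycin hydrolase) had a log2 fold change of -0.36 ± 0.22 (SE) and THOP1, an oligopeptidase that degrades peptides in the cytosol, -0.35 ± 0.39, which were -0.46 for BLMH and 0.08 for THOP1 without CON4. THOP1 was at 8.46 to 9.49 TPM in the DCLI calves and at 8.10 to 8.85 TPM in CON1 to CON3, with 30.3 TPM in CON4.

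PSMB8, PSMB9 and PSMB10 are the inducible catalytic subunits that replace PSMB5, PSMB6 and PSMB7 when the immunoproteasome is assembled. PSMB8 was at 914, 879, 974 and 525 TPM in the DCLI calves, against 979, 599, 718 and 508 TPM in the CON calves. PSMB9 was at 470, 435, 499 and 227 TPM in the DCLI calves, against 510, 369, 300 and 289 TPM in the CON calves. PSMB10 was at 299, 269, 313 and 210 TPM in the DCLI calves, against 367, 274, 232 and 197 TPM in the CON calves. CON1 was the highest of all 8 calves for each of the 3 genes, DCLI4 was the lowest of its group each time, and CON4 likewise.

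The log2 fold changes of these 3 subunits were small beside their errors. They were 0.24 ± 0.29 for PSMB8 (SE; limma adjusted p = 0.819), 0.13 ± 0.30 for PSMB9 (0.903) and 0.05 ± 0.24 for PSMB10 (0.954). Without CON4 they were 0.09, 0.02 and -0.08. The 95% intervals over all 8 calves reached from -0.42 to 0.89 for PSMB8, from -0.56 to 0.82 for PSMB9 and from -0.49 to 0.59 for PSMB10.

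**Figure D2:**
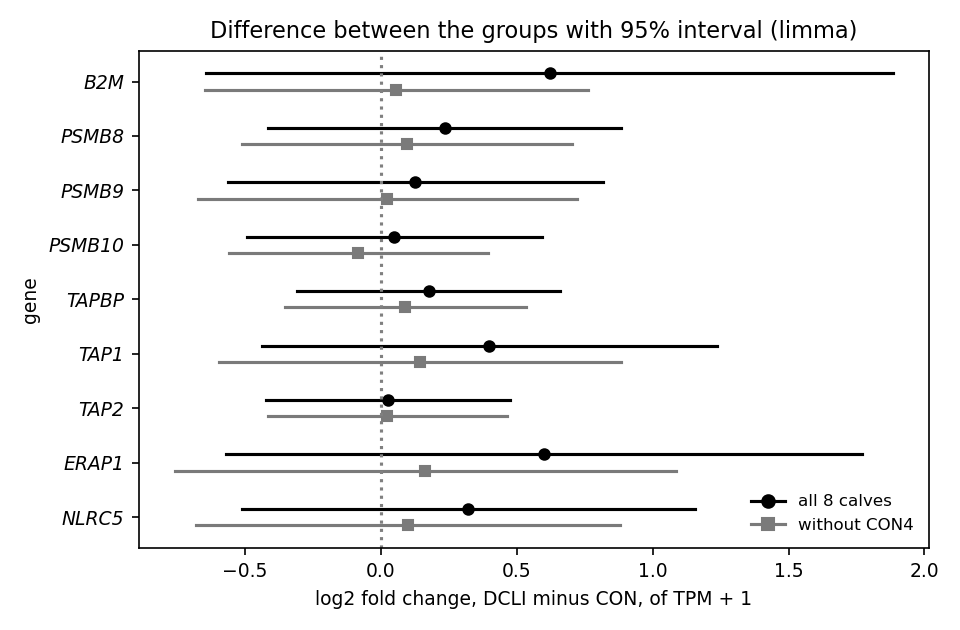
Log2 fold change of TPM + 1, DCLI minus CON, of the 9 genes with its 95% interval from limma, over all 8 calves (black circles) and without CON4 (grey squares). Every interval covers 0, and leaving out CON4 moves B2M to 0.06 from 0.62 and ERAP1 to 0.16 from 0.60.

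Set against its constitutive partner within each library, PSMB9 came nearest to a difference. The ratio of PSMB9 to PSMB6, each as TPM + 1, was 4.45, 4.49, 4.46 and 2.67 in the DCLI calves, against 3.48, 3.08, 2.64 and 1.54 in the CON calves. DCLI1 to DCLI3 were nearly equal and above every CON calf, and DCLI4 lay between CON2 and CON3. The log2 difference was 0.61 ± 0.32 (SE), with an exact permutation p of 0.086, or 0.257 adjusted over the 3 ratios, and without CON4 it was 0.37 (exact permutation p = 0.2).

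The 2 other ratios were closer between groups. PSMB8 over PSMB5 was 14.7, 19.1, 15.6 and 10.5 in the DCLI calves, against 13.9, 9.63, 15.8 and 9.61 in the CON calves, a log2 difference of 0.30 ± 0.26 (SE; exact permutation p = 0.229, adjusted 0.343) that was 0.19 without CON4 (exact permutation p = 0.457). PSMB10 over PSMB7 was 2.60, 2.59, 2.47 and 1.97 in the DCLI calves, against 3.06, 2.45, 2.04 and 1.13 in the CON calves, a log2 difference of 0.23 ± 0.32 (SE; exact permutation p = 0.571) that was -0.05 without CON4. In every library the inducible subunit exceeded its partner, by the most for PSMB8.

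**Figure D3:**
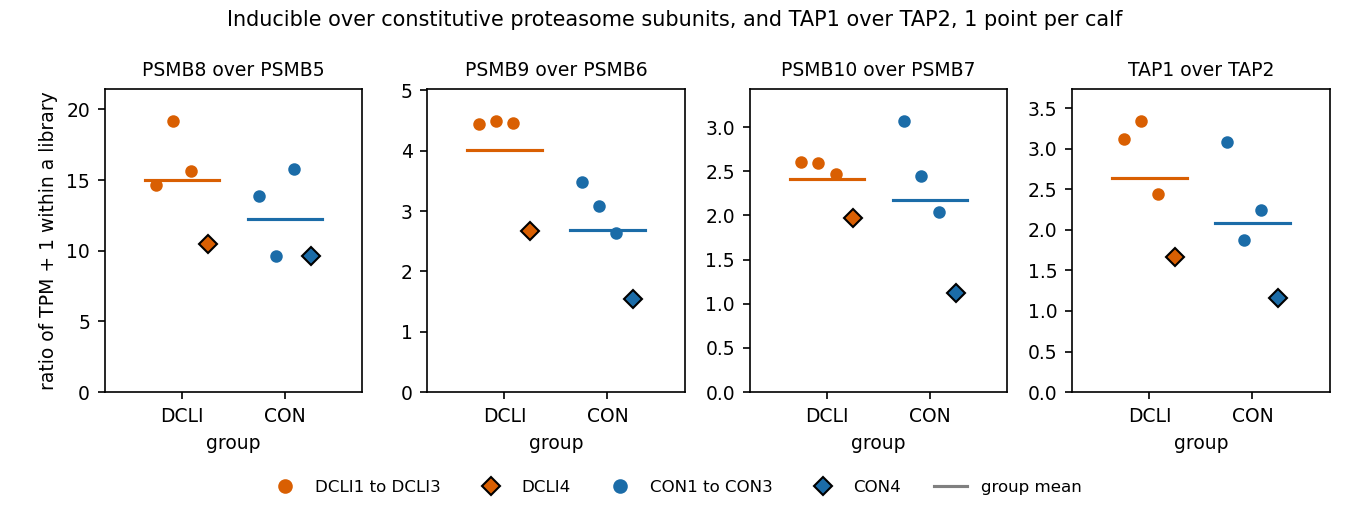
Ratio of TPM + 1 within each library for the 3 inducible over constitutive subunits and for TAP1 over TAP2, DCLI left and CON right, 1 point per calf with diamonds for DCLI4 and CON4 and bars for group means. For PSMB9 over PSMB6 the values of DCLI1 to DCLI3 lie at 4.45 to 4.49, above all CON calves (1.54 to 3.48), while DCLI4 is at 2.67.

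The partner PSMB6 had part in that ratio. PSMB6 was at 105, 96.2, 111 and 84.4 TPM in the DCLI calves, against 146, 119, 113 and 187 TPM in the CON calves. All DCLI values were below all CON values, although DCLI3 and CON3 were close. The log2 fold change of PSMB6 was -0.48 ± 0.21 (SE; unadjusted p = 0.045, limma adjusted p = 0.696), and -0.34 without CON4 (unadjusted p = 0.059). PSMB7 and PSMB5 had log2 fold changes of -0.18 ± 0.20 and -0.06 ± 0.20 (SE), with groups that overlapped, and without CON4 they were at -0.03 for PSMB7 and -0.10 for PSMB5.

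The rest of the proteasome leaned the other way from the 9 genes. Of 36 constitutive, assembly and 19S genes tested, 29 (80.6%) had a negative fold change, against 56.5% of all genes, with a median of -0.17 on the log2 scale. None passed the adjusted test, and 5 had an unadjusted p under 0.05, all lower in DCLI calves (background 2.99%): PSMB6, the assembly chaperone PSMG4, the 19S ATPases PSMC1 and PSMC3, and the 19S scaffold subunit PSMD2. For 5 genes all DCLI values were below all CON values (background 3.11%), namely PSMB6, PSMG4, PSMC1, PSMC3 and PSMD4, a ubiquitin receptor. CON4 was the highest library for 24 of the 36, against 39.8% of all genes. Without CON4, 22 of 36 (61.1%) were negative, against 48.6% of all genes, and 2 (PSMG4 and PSMC3) had an unadjusted p under 0.05, against 10.1% of all genes.

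PSMG4 had the clearest separation among these. It was at 110, 94.3, 109 and 94.2 TPM in the DCLI calves, against 146, 140, 150 and 175 TPM in the CON calves. The lowest CON calf was above the highest DCLI calf by a wide gap. The log2 fold change was -0.58 ± 0.16 (SE; unadjusted p = 0.0059, limma adjusted p = 0.692), and -0.51 without CON4.

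By list, the 17 genes of the 19S cap had 3 positive and 14 negative fold changes, the 11 other 20S subunits 3 and 8, and the 5 assembly genes 1 and 4. Without CON4, 13 of the 17 19S genes were negative, but only 4 of the 11 other 20S subunits and 2 of the 5 assembly genes. The median log2 fold changes were then -0.18 for the 19S genes, 0.05 for the other 20S subunits and 0.10 for the assembly genes. The 19S genes with the largest fold changes were PSMD3 (-0.49 ± 0.25), PSMD2 (-0.46 ± 0.20) and PSMC1 (-0.42 ± 0.18), each as log2 with its SE, and without CON4 they were -0.27 for PSMD3, -0.36 for PSMD2 and -0.33 for PSMC1. Those of the other 20S subunits were PSMB3 (-0.24 ± 0.25), PSMB4 (-0.20 ± 0.18) and PSMA5 (-0.18 ± 0.24), and among assembly factors PSMG1 (-0.48 ± 0.27) and POMP (-0.09 ± 0.22) followed PSMG4. Without CON4 these were -0.10 for PSMB3, -0.16 for PSMB4, -0.07 for PSMA5, -0.25 for PSMG1 and 0.10 for POMP. Of the 4 activators, PSME2, a subunit of the interferon-inducible 11S cap, had 0.25 ± 0.29, the nuclear cap subunit PSME3 -0.26 ± 0.24 and PSME4 0.25 ± 0.26, and without CON4 these were 0.05 for PSME2, -0.06 for PSME3 and 0.26 for PSME4.

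**Figure D4:**
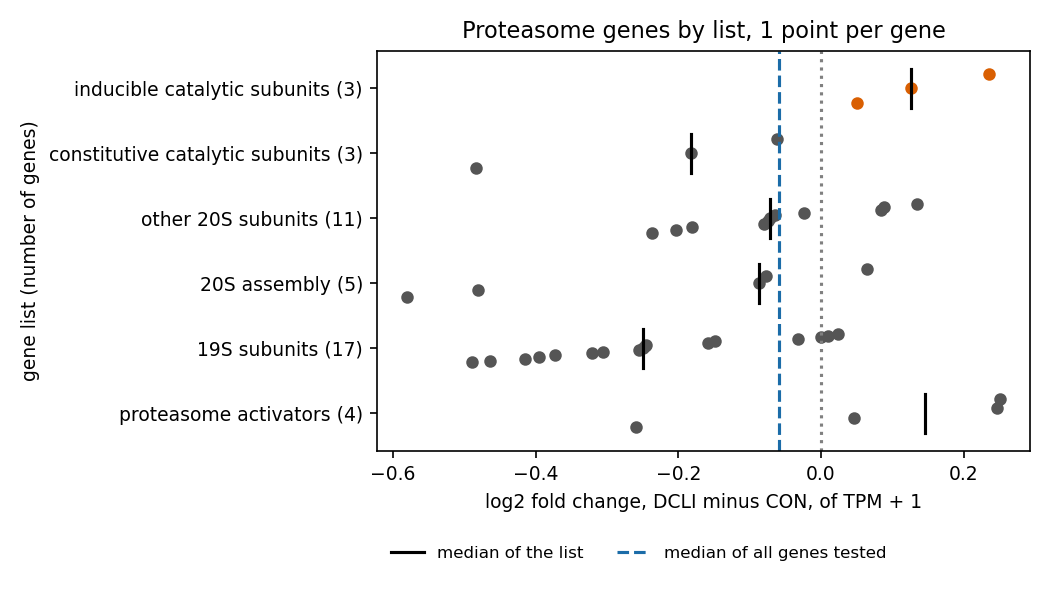
Log2 fold change of TPM + 1, DCLI minus CON, of each proteasome gene by list, with the list's median (black bar) and the median of all genes tested (dashed line, -0.06). The 3 inducible subunits lie right of 0 (0.05 to 0.24), while 14 of 17 genes of the 19S list lie left of it.

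NLRC5, the transactivator that binds class I promoters with the RFX complex, was the lowest of the 9 genes. It was at 34.8, 39.6, 44.0 and 15.7 TPM in the DCLI calves, against 36.8, 23.6, 28.5 and 15.3 TPM in the CON calves. DCLI4 and CON4 had nearly the same level, below every other calf, and DCLI2 and DCLI3 were above all CON calves. The log2 fold change was 0.32 ± 0.37 (SE; 95% interval -0.51 to 1.15; limma adjusted p = 0.808), and 0.10 without CON4.

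Of 13 class I and interferon regulators other than NLRC5, 4 had a positive and 9 a negative fold change, and 0 had an unadjusted p under 0.05. Without CON4, 5 of the 13 were negative, and their median log2 fold change was 0.02, against -0.16 over all 8 calves. IRF1, an interferon-induced activator of class I promoters, was at 277, 292, 301 and 128 TPM in the DCLI calves, against 271, 234, 246 and 79.3 TPM in the CON calves. DCLI4 and CON4 were again the lowest, and the log2 fold change was 0.33 ± 0.44 (SE), or -0.08 without CON4. CIITA, the class II counterpart of NLRC5 and active in B cells, was at 10.02, 9.52, 11.96 and 5.03 TPM in the DCLI calves and at 14.8, 8.71, 10.3 and 50.3 TPM in the CON calves. Its log2 fold change was -0.82 ± 0.51 (SE), and -0.30 without CON4. NFYC, a subunit of the CCAAT-binding NF-Y factor, had -0.36 ± 0.22, and -0.18 without CON4.

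The interferon gamma list of 6 genes had 4 positive and 2 negative fold changes and 0 with an unadjusted p under 0.05. Without CON4, 1 of the 6 was negative. IFNG itself was low, at 2.38, 2.75, 5.98 and 0.50 TPM in the DCLI calves, against 1.77, 0.87, 1.36 and 0.86 TPM in the CON calves. The other 3 DCLI calves were above every CON calf and DCLI4 was below all of them, with a log2 fold change of 0.64 ± 0.42 (SE; limma adjusted p = 0.743) that was 0.56 without CON4. The receptor chain IFNGR2 had a log2 fold change of 0.40 ± 0.32 (SE), and SOCS1, an inhibitor of the receptor's kinases, -0.36 ± 0.67. Without CON4 these were 0.08 for IFNGR2 and 0.21 for SOCS1.

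The same 2 calves, one in each group, were low for most of the 9 genes. DCLI4 was below every other DCLI calf for 8 of the 9 genes, against 37.2% of all genes, and CON4 was below every other CON calf for 8 of 9, against 34.5% of all genes. They were the 2 lowest of all 8 calves for 7 of the 9, against 5.31% of all genes. CON4 was the lowest of all for 7, against 28.8% of all genes, and DCLI4 for TAP2 and PSMB9. This grouping was seen in the values and then counted, so it is a description.

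The profiles of the 2 calves were unlike in size and in other genes. Relative to the mean of the other 3 calves of its group, DCLI4 was at 0.40 for NLRC5, 0.41 for TAP1, 0.49 for PSMB9, 0.55 for B2M and 0.81 for ERAP1. By the same measure CON4 was at 0.52 for NLRC5, 0.49 for TAP1, 0.74 for PSMB9, 0.21 for B2M and 0.25 for ERAP1. IRF1 was at 0.44 in DCLI4 and at 0.32 in CON4.

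Cell type markers moved with the low values in CON4 but less so in DCLI4. In DCLI4 the T cell gene CD3E was at 1.08 and the epithelial genes VIL1 and EPCAM at 1.20 and 1.08 of the mean of the other DCLI calves, and CD8A, the coreceptor that reads class I, at 0.66. Other T cell genes differed from CD3E. DCLI4 had CD2 at 26.5, CD5 at 7.26, CD8B at 13.4 and CD4 at 5.15 TPM. Each was below the other DCLI calves (34.4 to 49.3, 11.0 to 13.5, 16.1 to 21.3 and 5.53 to 19.2 TPM). CD3D was at 96.3 TPM, against 81.8 to 101 TPM, and CD3G at 98.8 TPM, against 99.9 to 111 TPM. The mean log2 level of the 8 T cell markers was 5.03 in DCLI4 and 5.30 to 5.52 in the other DCLI calves. In CON4, CD3E was at 0.31, VIL1 at 0.11, EPCAM at 0.28 and CD8A at 0.38 of the mean of the other CON calves, beside the high B cell sum. The 6 cytotoxic lymphocyte markers in the table summed to 567 TPM in DCLI4 and 620 to 919 TPM in the other DCLI calves, against 193 TPM in CON4 and 513 to 718 TPM in the other CON calves. IFNG was at 0.14 in DCLI4 and 0.65 in CON4. The part of cell makeup in the levels of the 9 genes was not tested.

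**Figure D5:**
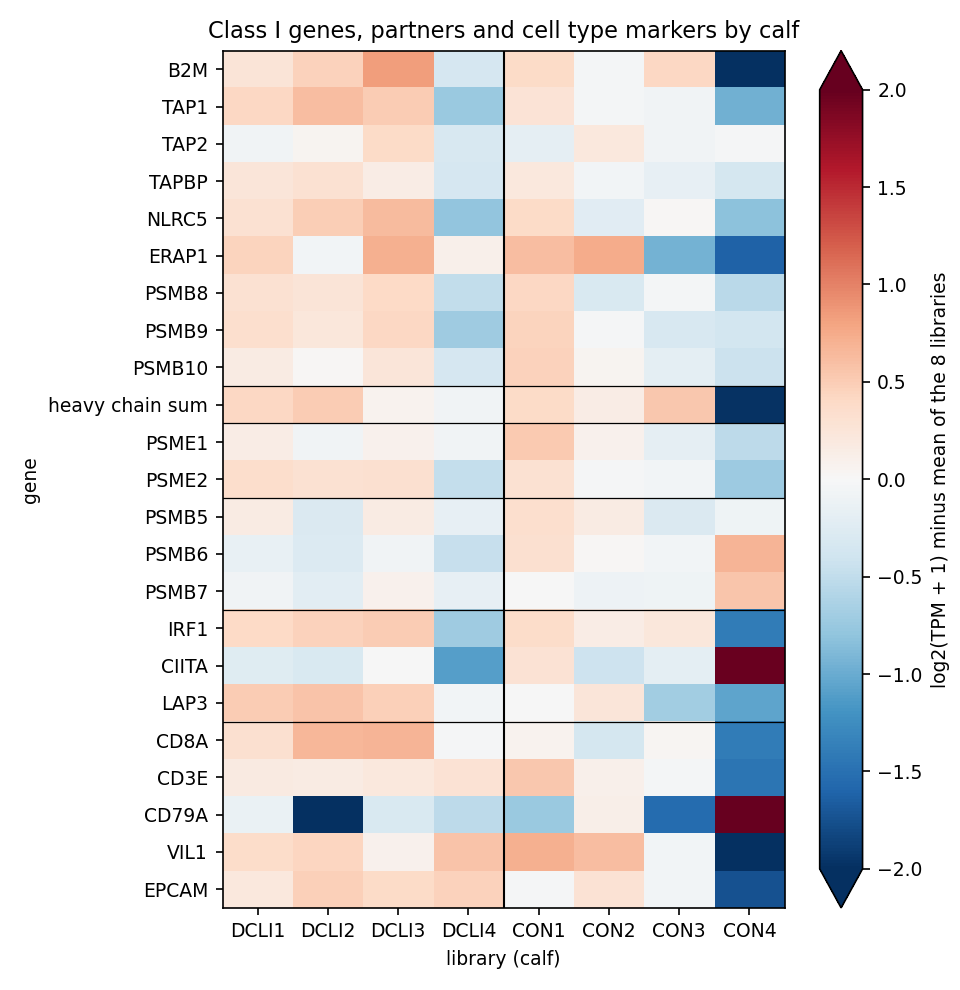
Log2(TPM + 1) of each gene in each calf minus its mean over the 8 calves (colour, cut at -2 and 2), for the 9 genes, the summed heavy chains, proteasome activators and constitutive subunits, regulators with LAP3, and markers of T cells, B cells and epithelium. DCLI4 is blue for 8 of the 9 genes and for IRF1 but not for CD3E, VIL1 or EPCAM, whereas in CON4 B2M, ERAP1, IRF1, CD3E, VIL1 and EPCAM are all blue and the B cell gene CD79A is dark red. CD8A and CD3E are the only T cell genes shown.

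Among the genes most like the mean log2 level of the 9 over the 8 libraries were RASSF1, a signalling scaffold (Pearson r 0.99), PSME2 (0.98), FYN, a Src-family kinase (0.97), and MLKL, an effector of necroptosis (0.95). IRF1 stood at rank 9 with r 0.95, but at rank 133 with r 0.89 without CON4. PSME2 was at 513, 496, 503 and 288 TPM in the DCLI calves and at 494, 397, 388 and 241 TPM in the CON calves, and so had the same low pair. These correlations are descriptions across 8 libraries that differ in cell makeup, and the pair DCLI4 and CON4 weighs on them. Without CON4 the leading genes over 7 libraries were CDCA4, MYBL2, NDE1, LOC613822 and RASSF1 (r 0.98 to 0.99), of which only RASSF1 was among the first 5 of both rankings, and PSME2 stood at rank 20 with r 0.96. In the omitted CON4, CDCA4, MYBL2, NDE1 and LOC613822 were at their highest, at 22.6, 235, 81.1 and 15.5 TPM. The other calves reached at most 7.92, 21.7, 15.3 and 8.48 TPM in the same order. RASSF1 was lowest in CON4, at 36.6 TPM, like the mean of the 9 genes.

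The table held 25 transcript rows for the 9 genes. TAP2 and TAPBP had 1 row each, and for B2M, TAP1, ERAP1, PSMB9 and PSMB10 a single row held at least 88.5% of the gene's TPM in every library. NLRC5 was divided between a row with 48.1 to 63.8% and a second with 35.8 to 46.4%, in both groups, and both were low in DCLI4 and CON4. For PSMB8 the main row was at 755, 749, 829 and 370 TPM in the DCLI calves, against 823, 458, 620 and 452 TPM in the CON calves. The second PSMB8 row was at 123, 88.8, 110 and 123 TPM in the DCLI calves, against 119, 110, 62.8 and 38.9 TPM in the CON calves. The low PSMB8 level of DCLI4 therefore lay in the main row, while the second row was as high there as in DCLI1. In RefSeq's gene order on the assembly ARS-UCD2.0, TAP1 lies directly between PSMB8 and PSMB9. Relative to the mean of the other CON calves, CON4 was at 0.49 for TAP1, 0.66 for PSMB8 and 0.74 for PSMB9. Relative to the other DCLI calves, DCLI4 was at 0.41, 0.57 and 0.49 in the same order.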

How the data were processed

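The paper reports that total RNA was extracted from calf jejunal epithelium and that libraries were made with poly(A) enrichment and sequenced at BGI. Per the paper, the read filter was SOAPnuke, HISAT2 did the alignment to the bovine assembly GCA_002263795.2, and RSEM the quantification. The TPM values deposited per transcript (50681 rows) were used. Every library sums to the same total, so these values carry no depth in reads, and the paper's read totals were not used here. Read counts, present for 76 rows only, and the authors' own fold changes and p-values were not used. The labels' processing notes name DESeq2 1.4.5, which was not run here.

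TPM was summed to 17932 genes by the deposited gene ID, of which 17696 matched RefSeq (ARS-UCD2.0), used for symbols and gene order only, since the assemblies differ. Genes that reached a TPM of 1 in 4 or more libraries were fitted with limma 3.58.1 in R 4.3.3 (group alone, trended prior) on log2(TPM + 1), with Benjamini-Hochberg adjustment over 13228 genes at 0.05. Ratios were compared by 2-sided exact permutation tests over 70 assignments, or over 35 without CON4. The limma script was tested on simulated data. Replicate numbers did not pair calves across groups. The gene sets, the 9 genes included, were chosen with earlier results of these data known. Heavy chains were taken by symbol, a rule set after the table was seen. Outside the 9, text names PSMB5, PSMB6, PSMB7, the 3 genes of each list with the largest absolute fold change, the 5 genes most like the mean of the 9 with and without CON4, and genes added after their values were seen (JSP.1, PSMC3, PSMD4 and single markers); some genes are not reported here. Promoter and protein sequences were not used here. Alternatives covered pseudocount, filter, scaling, prior, library weights, replicate block and each calf left out.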

Additional observations from a re-analysis of the deposited data

Results flagged for a closer look

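Among 48 groups of 4 calves checked, 4 had 1 calf farther from the others than Dixon's 95% limit for its group, and chance gives about 1 in 20. The ratio of PSMB9 to PSMB6 was 2.67 in DCLI4, against 4.45 to 4.49 in the other DCLI calves. BOLA-4 was at 929 TPM in CON3, against 16.3 to 102 TPM in the other CON calves. BOLA-3 was at 2737 TPM in CON4, against 14444 to 16012 TPM in the other CON calves. PSMB7 was at 175 TPM in CON4, against 112 to 119 TPM in the other CON calves.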

How the results depend on the processing

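Of the 9 genes, 0 had an adjusted p under 0.05 under any alternative run with limma, and their adjusted p-values lay between 0.543 and 0.999. With single calves left out, all genes tested gave 0 to 9 calls at an adjusted p under 0.05 (9 without CON2, 1 without DCLI1) and 438 to 1345 at an unadjusted p under 0.05, and the 9 genes gave 0 to 1 (TAP1 without DCLI4). Between 7 and 9 of the 9 fold changes stayed positive, and 22 to 34 of the 36 other proteasome genes were negative. With all calves included, no fold change passed the adjusted test and no ratio its permutation test, whether or not its sign turned. With single calves left out, the log2 value ranged from -0.052 to 0.43 for PSMB10 over PSMB7, from -0.10 to 0.14 for TAP2, -0.083 to 0.21 for PSMB10, -0.12 to 0.71 for the heavy chain sum, -0.065 to 0.28 for B2M over that sum, -0.13 to 0.72 for BOLA-3, -0.078 to 0.62 for IRF1, -0.40 to 0.19 for CD1D, -0.010 to 0.40 for FCGRT, -0.22 to 0.16 for MR1, -0.19 to 0.016 for PDIA3, -0.18 to 0.10 for POMP, -0.17 to 0.041 for PSMB5, -0.67 to 0.21 for SOCS1 and -0.51 to 0.079 for THOP1. With array weights it was -0.081 for TAP2, -0.040 for ERAP1, -0.058 for FCGRT, -0.028 for IFNGR2, 0.0039 for POMP, 0.0020 for PSMB7, 0.41 for SOCS1 and 0.011 for THOP1, and 7 of the 9 genes were positive. MR1 was at 0.027 with median-of-ratios scaling and 0.012 with quantile normalization. The causes were not tested. Leaving out calves for the heavy chain sum and its ratio was chosen after seeing the data. Same-numbered calves deviated with correlations of -0.20 to 0.05, so the numbers name calves only; the replicate block gave 0 adjusted and 845 unadjusted calls, against 937 without it. With 4 calves a group, the intervals above leave differences of more than 1 on the log2 scale possible for B2M, TAP1, ERAP1 and NLRC5, and TPM holds no depth.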
